A study of Mus musculus with 6 samples.

Results

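Mitochondrial DNA encodes 13 respiratory chain proteins, 2 ribosomal RNAs and 22 transfer RNAs, and all 37 of these genes were measured in mouse aorta after treatment with an antibody against CTHRC1 or with an isotype IgG. The members were the genes whose symbol begins with mt-, which gave 37 of the 32771 genes in the deposited table. Every one of them was annotated on the mitochondrial chromosome (MT in GRCm38), had counts in every library and passed the filter on low counts. The study sequenced RNA from 6 aorta libraries. All 6 came from WT mice under AngII/BAPN, which combines the vasoconstrictor angiotensin II and beta-aminopropionitrile, an inhibitor of the enzymes that cross-link collagen and elastin, to produce aortic dissection. In 3 libraries (anti-CTHRC1 replicates 5, 7 and 39) the infusion was combined with the antibody, directed at a secreted protein of activated fibroblasts. In the other 3 (IgG replicates 14, 18 and 20) it was combined with the isotype IgG. The age, sex and doses, and whether each library came from a separate animal, are not given in the sources used here, so a p-value here reflects only variation from library to library, which may be technical.

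Mitochondrial DNA is a small circle, transcribed along both strands into long precursor RNAs by the polymerase POLRMT with the factors TFAM and TFB2M. In these precursors tRNAs sit between most of the mRNAs and rRNAs, and cutting at the tRNA ends by mitochondrial RNase P and ELAC2 releases the neighbouring RNAs. The mature mRNAs are then kept stable by proteins such as LRPPRC and translated on mitochondrial ribosomes into core subunits of complexes I, III and IV and of ATP synthase, whose remaining subunits come from nuclear genes. In contractile tissue such as the aortic wall and the heart these transcripts are among the most abundant in the cell.

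Total counts ran from 64556253 to 67859566 per library. The smooth muscle markers of the aortic wall (6 of 6 genes) had counts in every library, with summed levels of 2207 to 5376 CPM after the antibody and 3708 to 7762 CPM with IgG. A pair of libraries was unlike the rest. In the antibody group, replicate 39 fell between its partners for 87.5% of the 3456 genes that separated replicates 5 and 7 by over 0.5 log2 units, and for 31 of the 37 mitochondrial genes. In the control group, 266 genes of IgG replicate 14 exceeded all 5 other libraries by at least 4-fold, a distance reached by 0 to 2 genes elsewhere. Class medians of the fold changes are given below with and without these libraries. Class shares of single genes and marker sums are given with all libraries only.

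Protein-coding mitochondrial transcripts took between 12.1% and 22.4% of all counts, and their share did not separate the groups. Antibody replicates 5, 7 and 39 had shares of 15.4%, 19.8% and 18.02%. With IgG, replicates 14, 18 and 20 had shares of 12.1%, 20.5% and 22.4%. Values of 6 libraries are given in this order throughout. The lowest and the highest library were both IgG libraries, so the antibody group lay inside the range of the control group. The means were 17.7% ± 2.21 (SD, n = 3) after the antibody and 18.3% ± 5.50 (SD, n = 3) with IgG, a difference of -0.61 percentage points (two-sided exact permutation test, p = 0.9). With 3 libraries against 3 this test cannot give a p below 0.1. Without IgG replicate 14 the control mean was 21.5% and the difference widened to -3.73 percentage points (exact p = 0.2). In bulk RNA of this kind, fewer cells of a type and less RNA per cell cannot be told apart.

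The 12S and 16S rRNAs together took 0.243%, 0.272% and 0.260% of counts after the antibody and 0.178%, 0.272% and 0.282% with IgG. IgG replicate 14 was again the lowest library, and the groups overlapped. The means of 0.258% ± 0.0147 and 0.244% ± 0.0571 (SD, n = 3 each) differed by 0.014 percentage points (two-sided exact permutation test, p = 0.9), and by -0.019 points without IgG replicate 14. The library kit named in the labels is for total RNA, and whether rRNA was depleted is not given in the sources used here. A depletion step, if used, could differ between libraries. The rRNA values and the ratios built on them therefore describe the deposited counts only. The 22 tRNA genes took 0.0570%, 0.0696% and 0.0648% after the antibody and 0.0446%, 0.0743% and 0.0864% with IgG. Both ends of that range were again IgG replicates 14 and 20. The tRNA means were 0.0638% ± 0.00638 and 0.0685% ± 0.0215 (SD, n = 3 each; two-sided exact permutation test, p = 0.8). Counting error was small beside these spreads, since the widest 95% Wilson interval reached 0.0102 percentage points to either side for the protein-coding share, 0.00129 for rRNA and 0.000717 for tRNA.

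**Figure D1:**
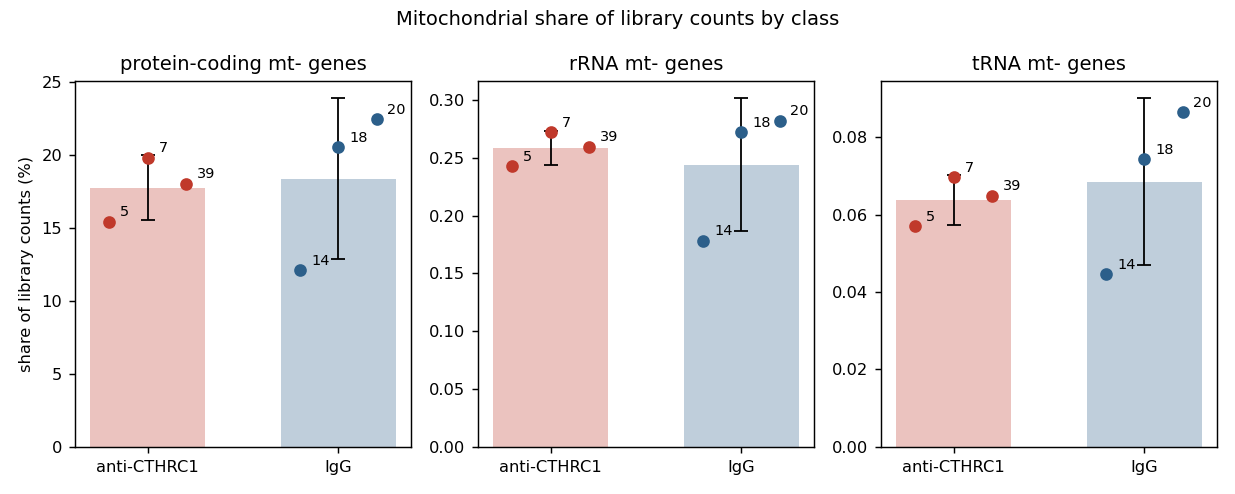
Share of library counts (%) taken by the protein-coding, rRNA and tRNA genes of mitochondrial DNA, with bars at the group mean, error bars of 1 SD (n = 3) and numbered points for each library. In all 3 panels IgG replicate 14 is the lowest point and IgG replicate 20 the highest, with the antibody libraries between them.

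The order of the libraries in mitochondrial RNA was set beside markers of cell types that the dissected tissue can hold, summed in CPM of the deposited counts without TMM scaling. Heart muscle markers (7 of 7 genes, 2 called higher in edgeR) had counts in every library. They summed to 222, 473 and 386 CPM after the antibody and 878, 173 and 30.0 CPM with IgG. The highest sum was in IgG replicate 14, which had the least mitochondrial RNA, and the lowest in IgG replicate 20, which had the most. Single markers differed. Myh6, Actc1, Tnnt2 and Myl2 were highest in IgG replicate 14. By contrast, Myl7, Myl4 and Nppa were lower in every IgG library than in every antibody library. Macrophage markers (5 of 5, 1 called lower in edgeR) summed to 295 to 349 CPM after the antibody and 454 to 933 CPM with IgG. Their sums did not overlap, with IgG replicate 14 again highest, though Adgre1 by itself did. The sums of white adipocyte markers (6 of 6, 1 called higher in edgeR) and fibroblast markers (5 of 5, none called) separated the other way. White adipocyte sums ran from 2511 to 4182 CPM after the antibody and from 705 to 2048 CPM with IgG. Fibroblast sums ran from 4812 to 6587 CPM after the antibody and from 3483 to 4477 CPM with IgG. Among their single genes the groups overlapped for Cidec, Pdgfra and Lum, and Pdgfra was highest in IgG replicate 14. Smooth muscle markers were highest in IgG replicate 18 and lowest in anti-CTHRC1 replicate 7, whose protein-coding shares of 20.5% and 19.8% were close. The part of these cell types in the mitochondrial shares was not tested.

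The balance between the classes moved less than the shares themselves. Counts on rRNA amounted to 1.58%, 1.38% and 1.44% of the protein-coding counts after the antibody and 1.47%, 1.33% and 1.26% with IgG. The groups overlapped, and the mean log2 ratio was 0.12 higher after the antibody (two-sided exact permutation test, p = 0.3, adjusted p = 0.7 over 7 shares and ratios). Counts on tRNA genes amounted to 0.370%, 0.352% and 0.360% of the protein-coding counts after the antibody and 0.368%, 0.363% and 0.385% with IgG, a log2 difference of -0.05 (exact p = 0.3, adjusted p = 0.7). The light-strand promoter gives mt-Nd6 and 8 tRNAs, and the heavy-strand promoters give the other 12 mRNAs, both rRNAs and 14 tRNAs. The light-strand mRNA, mt-Nd6, made up 1.82%, 1.67% and 1.73% of protein-coding counts after the antibody and 2.09%, 1.90% and 2.04% with IgG. Every IgG library was above every antibody library, and the means of 1.74% ± 0.0754 and 2.01% ± 0.0989 (SD, n = 3 each) differed by -0.27 percentage points. The exact p of 0.1 is the smallest that this design allows, and the p adjusted over the 7 comparisons was 0.7. The strand setting of the counting is not given in the sources used here, so RNA of the opposite strand may be among the mt-Nd6 counts.

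Per length, in the deposited FPKM, mt-Co1 was the most abundant mitochondrial mRNA by a wide margin. It encodes the catalytic core of cytochrome c oxidase and averaged 42898 FPKM over the 6 libraries (28075 to 55275), 2.43 to 2.82 times the gene that followed it. A dense group came next. The complex I subunit gene mt-Nd1 averaged 16182 FPKM, the oxidase subunit gene mt-Co2 15698 FPKM and the cytochrome b gene mt-Cytb 15641 FPKM. After them came the ATP synthase gene mt-Atp8 at 14193 FPKM, mt-Co3 at 13303 FPKM and mt-Atp6 at 12519 FPKM. Neighbours among these 6 genes changed places between libraries, with the upper gene of a pair ahead in 3 to 5 of 6 libraries, so their order is not set beyond the spread. From mt-Atp6 downward the mRNA steps held in more of the libraries. Levels of mt-Nd4 averaged 10501 FPKM and of mt-Nd2 9404 FPKM, each ahead of the next gene in 6 of 6 libraries. The light-strand gene mt-Nd6 (6178 FPKM) was above mt-Nd5 (5701 FPKM) in 5 of 6 libraries, within the limit of the unknown strand setting. The lowest mRNAs per length were mt-Nd4l at 4134 FPKM and mt-Nd3 at 1133 FPKM. The rRNAs mt-Rnr1 and mt-Rnr2 stood at 1149 and 817 FPKM, values that any rRNA depletion would have lowered. Near-identical nuclear copies, described below, had 94.6% to 106% of the counts of mt-Co2, mt-Co3, mt-Atp6, mt-Nd4l and mt-Nd3. For mt-Nd4 the copy had 31.0% to 33.2%. How reads shared with a copy were counted is not known. The order and the margin of mt-Co1 therefore hold for the deposited values only.

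**Figure D2:**
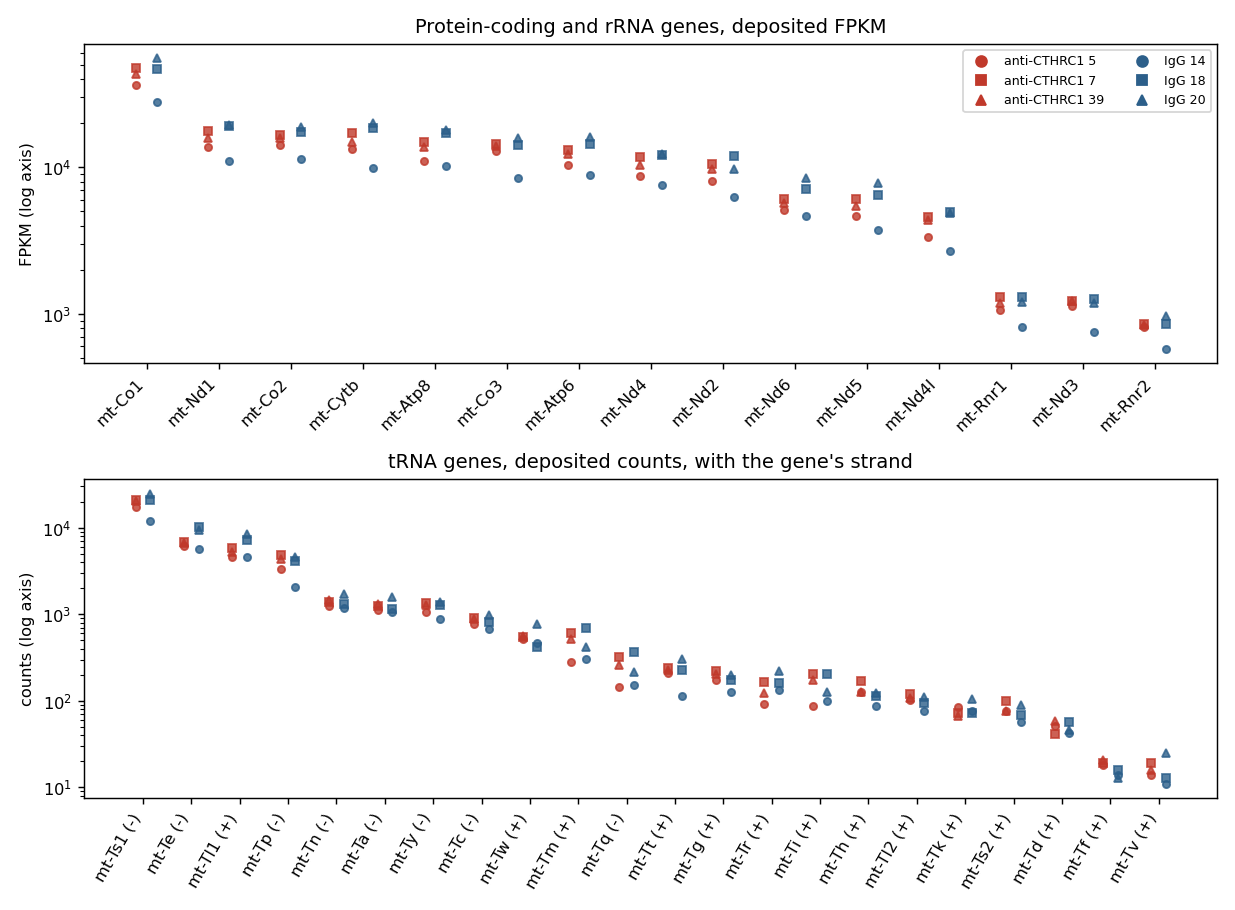
Upper panel, deposited FPKM (log axis) of the 13 protein-coding and 2 rRNA genes in each of the 6 libraries, ordered by their mean, and lower panel, deposited counts (log axis) of the 22 tRNA genes with the strand of each gene. The level of mt-Co1 stands at 28075 to 55275 FPKM above all other genes, and the minus-strand tRNA genes gather at the left, with mt-Tf and mt-Tv at 11 to 25 counts on the right.

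No mitochondrial gene was called changed. In edgeR's quasi-likelihood test 0 of the 37 genes passed an adjusted p of 0.05, against 0.317% of the 19241 genes tested (0.104% higher and 0.213% lower after the antibody), and 0 of the 37 had an unadjusted p under 0.05, against 17.1% of all genes. The DESeq2 Wald test also called 0 of the 37, against 7.48% of its tested genes (2.78% higher and 4.7% lower), and limma-voom and limma on log2 FPKM called 0 as well. The 13 mRNAs had a median log2 fold change of -0.01 (6 higher and 7 lower after the antibody), the rRNAs 0.12 (both higher) and the tRNAs 0.04 (15 higher and 7 lower), beside -0.02 over all genes tested. The standard errors of the mRNA fold changes were 0.25 to 0.36 on the log2 scale. Their 95% intervals together reached from -0.95 to 0.89, and a p that misses the threshold does not show that levels were equal. In scaled CPM 1 of the 37 genes, mt-Tf, had groups that did not overlap, against 22% of all genes.

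Nearly all genes were lowest in the same library in scaled CPM. On that scale IgG replicate 14 was the lowest of the 6 for 36 of the 37 genes, the exception being mt-Tr, and IgG replicate 20 was the highest for 25. The highest library exceeded the lowest by 1.93 to 2.50 times for the mRNAs, 1.89 to 2.01 times for the rRNAs and 1.54 to 3.39 times for the tRNAs. IgG replicate 14 also had the largest TMM factor, 1.13, which lowers its scaled values. As unscaled shares of counts, all mRNAs and rRNAs were still lowest in IgG replicate 14. The tRNA genes mt-Tf, mt-Ti, mt-Tq, mt-Tm, mt-Tw, mt-Td, mt-Tk and mt-Tr were then lowest in other libraries. The sign of the class medians depended on which control libraries entered. Without IgG replicate 14 the median log2 fold changes were -0.28 for mRNAs, -0.11 for rRNAs and -0.21 for tRNAs, and without IgG replicate 20 they were 0.22, 0.34 and 0.36. Without anti-CTHRC1 replicate 39 they were -0.03, 0.13 and 0.02. Without both anti-CTHRC1 replicate 39 and IgG replicate 14 they were -0.31, -0.11 and -0.22. Under edgeR no gene was called in any of these fits.

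Complex I, the NADH dehydrogenase that feeds electrons into the chain, has 7 mitochondrially encoded subunits, and none passed the test. In TMM-scaled CPM, counts scaled to a common library size, mt-Nd1 (MT:2751-3707, plus strand) had 13843, 18609 and 16322 CPM after the antibody and 9830.2, 19073 and 21069 CPM with IgG. The neighbouring proton-pump subunit gene mt-Nd2 (MT:3914-4951) had 8738, 12090.2 and 10938 CPM after the antibody and 6083, 12934 and 11367 CPM with IgG. For both genes IgG replicate 14 was the lowest library and the antibody libraries lay within the control range (log2 fold changes -0.035 ± 0.32 and 0.064 ± 0.31, SE). The large proton-pump subunit gene mt-Nd4 (MT:10167-11544) had 12737, 17777 and 15391 CPM after the antibody and 9794, 17367 and 19125 CPM with IgG. For mt-Nd5 (MT:11742-13565), the longest mitochondrial mRNA gene, the values were 8885, 12312 and 10695 CPM after the antibody and 6352, 12299 and 15903 CPM with IgG. Again the control group held both ends, with log2 fold changes of -0.012 ± 0.30 and -0.12 ± 0.35.

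Among the mRNAs, mt-Nd3 had the highest fold change and mt-Nd6 the lowest, and neither passed the test. For mt-Nd3 (MT:9459-9806) the values were 412, 474 and 456 CPM after the antibody and 246, 457 and 467 CPM with IgG, and the log2 fold change was 0.20 ± 0.25. Antibody replicates 5, 7 and 39 were close to IgG replicates 18 and 20, and IgG replicate 14 lay far below. The gene mt-Nd4l (MT:9877-10173), which overlaps mt-Nd4 by 7 bases, had 1038, 1495 and 1398 CPM after the antibody and 745, 1534 and 1623 CPM with IgG (0.010 ± 0.31). On the minus strand, mt-Nd6 (MT:13552-14070) had 2796, 3471 and 3174 CPM after the antibody and 2245, 3837 and 4911 CPM with IgG. Its 3 antibody libraries all lay between IgG replicate 14 and IgG replicate 18, and the log2 fold change was -0.22 ± 0.29. The mt-Nd6 gene overlaps the end of mt-Nd5 by 14 bases on the opposite strand, and its counts were 28.2% to 35.3% of those of mt-Nd5.

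Complex III and complex IV carry electrons from ubiquinol to oxygen. Cytochrome b, the mitochondrially encoded core of complex III, comes from mt-Cytb (MT:14145-15288), which had 15941, 21789 and 18274 CPM after the antibody and 10531, 21971 and 25786 CPM with IgG (log2 fold change -0.058 ± 0.35). In cytochrome c oxidase, mt-Co1 (MT:5328-6872) had 58809, 81488 and 71651 CPM after the antibody and 40564, 74966 and 95922 CPM with IgG, with a log2 fold change of 0.0034 ± 0.36. Both genes varied more than 2-fold between control libraries while the group means were nearly equal. The copper-binding subunit gene mt-Co2 (MT:7013-7696) had 10135, 12642 and 11581 CPM after the antibody and 7323, 12251 and 14471 CPM with IgG. For mt-Co3 (MT:8607-9390) the values were 10621, 12538 and 11812 CPM after the antibody and 6177, 11542 and 13886 CPM with IgG. The log2 fold changes were 0.013 ± 0.28 and 0.15 ± 0.31, the latter the largest of the 3 oxidase genes. As a share of protein-coding counts, complex IV took 48.9% to 51.8%, complex I 30.9% to 33.4% and complex III 9.80% to 10.9%, with overlap between the groups in each.

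The ATP synthase genes lie end to end and share sequence. The mt-Atp8 gene encodes a small subunit of the membrane part of the enzyme, and mt-Atp6 encodes the subunit that forms the proton path. The mt-Atp8 sequence (MT:7766-7969, plus strand, GRCm38, from GENCODE transcripts) is shown because its last 43 bases, in capitals, are also the start of mt-Atp6 (MT:7927-8607), so that a read within them can belong to either gene.
mt-Atp8: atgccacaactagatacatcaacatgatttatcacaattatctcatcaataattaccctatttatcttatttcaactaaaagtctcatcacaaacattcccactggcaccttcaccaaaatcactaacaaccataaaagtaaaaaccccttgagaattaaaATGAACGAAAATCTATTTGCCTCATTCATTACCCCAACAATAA
Levels of mt-Atp8 were 2385, 3375 and 3013 CPM after the antibody and 1938, 3643 and 4098 CPM with IgG. For mt-Atp6 they were 7396, 9909 and 8954 CPM after the antibody and 5621, 10211 and 12275 CPM with IgG. As levels the groups overlapped in both genes, with log2 fold changes of -0.14 ± 0.30 and -0.10 ± 0.31. As a share of protein-coding counts the genes together took 6.36%, 6.39% and 6.52% after the antibody and 7.04%, 6.86% and 6.80% with IgG. Every control library was above every antibody library (6.42% ± 0.0823 and 6.90% ± 0.124, SD, n = 3 each; two-sided exact permutation test, p = 0.1, the smallest possible, and 0.4 after adjustment over the 4 complexes).

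The rRNA genes are the first transcripts of the heavy strand. The 12S rRNA gene mt-Rnr1 (MT:70-1024, plus strand), the RNA of the small mitochondrial ribosomal subunit, had 1068, 1379 and 1225 CPM after the antibody and 728, 1283 and 1301 CPM with IgG. The 16S rRNA gene mt-Rnr2 (MT:1094-2675), the RNA of the large subunit, had 1356, 1482 and 1421 CPM after the antibody and 856, 1399 and 1724 CPM with IgG. Both were lowest in IgG replicate 14 and otherwise overlapped, with log2 fold changes of 0.15 ± 0.25 (95% interval -0.44 to 0.74) and 0.10 ± 0.26 (-0.51 to 0.71). The 12S RNA had 78.8%, 93.0% and 86.2% after the antibody and 85.1%, 91.7% and 75.5% with IgG of the counts of the 16S RNA. That ratio was lowest in IgG replicate 20 and anti-CTHRC1 replicate 5, and its group means did not differ beyond the spread (two-sided exact permutation test, p = 0.7).

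The tRNA counts were concentrated in a few genes. The serine tRNA gene mt-Ts1 held 44.2% of all tRNA counts, the glutamate tRNA gene mt-Te 17.1%, the leucine tRNA gene mt-Tl1 13.6% and the proline tRNA gene mt-Tp 8.83%. Together these 4 genes took 81.4% to 85.3% of tRNA counts in each library. Their sequences and that of mt-Tf, the phenylalanine tRNA gene at the other end of the range, are shown because the tRNA results turn on them. They are GENCODE transcript sequences in GRCm38, read along the gene's own strand, with the anticodon in capitals: mt-Ts1 at MT:6870-6938 (minus strand), mt-Te at MT:14071-14139 (minus), mt-Tl1 at MT:2676-2750 (plus), mt-Tp at MT:15356-15422 (minus) and mt-Tf at MT:1-68 (plus).
mt-Ts1: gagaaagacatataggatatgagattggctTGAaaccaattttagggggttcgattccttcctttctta
mt-Te: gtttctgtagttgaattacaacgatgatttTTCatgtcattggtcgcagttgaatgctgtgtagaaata
mt-Tl1: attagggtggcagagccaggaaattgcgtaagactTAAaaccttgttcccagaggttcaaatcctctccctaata
mt-Tp: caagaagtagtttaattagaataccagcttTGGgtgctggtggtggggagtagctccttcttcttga
mt-Tf: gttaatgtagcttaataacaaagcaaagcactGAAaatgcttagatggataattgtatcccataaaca
These genes are 67 to 75 bases long, and all 22 are 59 to 75 bases long, shorter than the 150-bp reads. A read over a tRNA gene therefore runs into its neighbours or comes from a shorter fragment, and tRNA counts are not counts of mature tRNA.

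The abundant tRNA genes were mostly those of the minus strand. Minus-strand genes were 7 of the 8 with the most counts, mt-Tl1 being the exception, and they took 79.3% to 83.0% of tRNA counts in each library. Their median count was 1133 to 1656 per library, against 94.0 to 165.5 for the 14 plus-strand genes. The remaining minus-strand gene, the glutamine tRNA gene mt-Tq, ranked 11. The plus-strand RNAs around the minus-strand genes are abundant mRNAs, such as mt-Co1, whose last 3 bases overlap mt-Ts1 on the opposite strand. The strand setting of the counting is not given in the sources used here, so reads of a minus-strand tRNA and reads of RNA from the opposite strand cannot be told apart. Counts on mt-Ts1 were 0.394% to 0.444% of those on mt-Co1 in every library.

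No tRNA gene passed the test, and the named genes overlapped between the groups. For mt-Ts1 the levels were 261, 332 and 304 CPM after the antibody and 159.7, 309 and 413 CPM with IgG, with a log2 fold change of 0.026 ± 0.32. The glutamate gene mt-Te had 93.5, 109 and 101 CPM after the antibody and 74.3, 149.7 and 158 CPM with IgG. Its antibody libraries lay below IgG replicates 18 and 20 and above IgG replicate 14 (-0.33 ± 0.27, edgeR adjusted p = 0.590). The leucine gene mt-Tl1, which holds the binding site of the terminator factor MTERF1, had 70.2, 92.6 and 78.4 CPM after the antibody and 60.7, 106 and 139 CPM with IgG, in the same pattern (-0.34 ± 0.29, edgeR adjusted p = 0.597). The histidine gene mt-Th had 1.91, 2.64 and 1.88 CPM after the antibody and 1.16, 1.68 and 2.03 CPM with IgG (0.40 ± 0.35, edgeR adjusted p = 0.605). These 3 genes had the smallest p-values among the tRNAs.

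The calls for mt-Te and mt-Tl1 depended on IgG replicate 14 under a single tool. Without that library DESeq2 called both lower after the antibody, with log2 fold changes of -0.60 (adjusted p = 0.000243) for mt-Te and -0.61 (adjusted p = 0.0256) for mt-Tl1, while it called 11.4% of all tested genes. In edgeR without the same library the adjusted p-values were 0.0703 and 0.151. Over all alternatives the adjusted p ranged from 0.000243 to 0.896 for mt-Te and from 0.0256 to 0.984 for mt-Tl1, and every fold change of both genes was negative.

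At the low end, counting error was a large part of the value. Counts on mt-Tf were 18, 19 and 21 counts after the antibody and 14, 16 and 13 counts with IgG, and each antibody library was above each control library. Exact 95% Poisson intervals were wide, at 11.4 to 29.7 around 19 counts in anti-CTHRC1 replicate 7 and 9.15 to 26.0 around 16 in IgG replicate 18. They show the counting error of single libraries and do not test the groups. In edgeR the difference did not pass the threshold (log2 fold change 0.47 ± 0.53, edgeR adjusted p = 0.699). The valine tRNA gene mt-Tv, between the rRNA genes, had 14, 19 and 16 counts after the antibody and 11, 13 and 25 counts with IgG. Across the 22 genes, 6 exceeded 1000 counts in every library and 3 stayed under 100 in every library. Apart from mt-Te, mt-Tl1, mt-Ts1 and mt-Th, the tRNA genes singled out here were chosen after their values were seen.

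Within each class the proportions of the genes were steadier than the levels. The share of a gene in its class differed between the highest and lowest library by 1.07 to 1.38 times for mRNAs, 1.10 to 1.12 times for rRNAs and 1.14 to 2.05 times for tRNAs. The groups did not overlap in this share for 9 of the 37 genes, 4 of them higher after the antibody and 5 higher with IgG. That count is near the 22% of all genes tested whose scaled CPM did not overlap, and nothing particular to the mitochondrial genes is read from it. The ratio of a nuclear gene to the summed protein-coding mitochondrial counts did not overlap between the groups in 7.57% of 19204 nuclear genes, a measure built differently, in which the mitochondrial total itself varies. Each of the 9 genes had an exact permutation p of 0.1, the smallest possible with 3 libraries against 3, so no gene could pass a threshold of 0.05 among the 37 compared.

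The separated mRNAs were mt-Co3, higher after the antibody, and mt-Nd6, mt-Atp8 and mt-Atp6, higher with IgG. The share of mt-Co3 in protein-coding counts was 6.91%, 6.03% and 6.43% after the antibody and 5.75%, 5.71% and 5.76% with IgG. The 3 control libraries were nearly equal, and the spread lay within the antibody group. For mt-Atp8 the share was 1.55%, 1.62% and 1.64% after the antibody and 1.80%, 1.80% and 1.70% with IgG, and for mt-Atp6 it was 4.81%, 4.76% and 4.88% after the antibody and 5.23%, 5.05% and 5.10% with IgG. The dominant gene, mt-Co1, held 37.1% to 39.8% of protein-coding counts with overlap between the groups.

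Among tRNAs the shares of the 4 main genes did not overlap between the groups, with an exact permutation p of 0.1 each and 0.411 after adjustment over the 37 genes. Shares of a fixed total cannot all differ in 1 direction. The share of mt-Ts1 in tRNA counts was 45.9%, 45.4% and 46.0% after the antibody and 40.4%, 42.2% and 44.5% with IgG, and that of mt-Tp was 8.86%, 10.4% and 9.77% after the antibody and 6.95%, 8.26% and 8.31% with IgG. Both were higher in every antibody library. In the other direction, mt-Te took 16.4%, 14.9% and 15.3% after the antibody and 18.8%, 20.4% and 17.0% with IgG, and mt-Tl1 took 12.3%, 12.7% and 11.9% after the antibody and 15.3%, 14.5% and 14.997% with IgG. The glycine tRNA gene mt-Tg, a gene of few counts, was the fifth separated tRNA gene, at 0.462% to 0.478% after the antibody and 0.354% to 0.423% with IgG. Set against the adjoining mRNA, mt-Tl1 had 0.507%, 0.498% and 0.480% after the antibody and 0.618%, 0.556% and 0.661% with IgG of the counts of mt-Nd1. Against mt-Cytb, which lies between them, mt-Te had 0.587%, 0.499% and 0.555% after the antibody and 0.706%, 0.681% and 0.612% with IgG and mt-Tp 0.316%, 0.348% and 0.353% after the antibody and 0.261%, 0.276% and 0.299% with IgG of its counts. None of these 3 ratios overlapped between the groups (exact permutation p = 0.1 each, 0.45 after adjustment over 18 ratios). Against mt-Nd6, which adjoins it on the same strand, mt-Te had 3.35%, 3.13% and 3.19% after the antibody and 3.31%, 3.90% and 3.22% with IgG, and the groups overlapped (exact permutation p = 0.4). The groups overlapped in 14 of the 18 ratios.

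A cluster of adjacent genes varied between libraries without following the groups. The isoleucine, glutamine and methionine tRNA genes mt-Ti, mt-Tq and mt-Tm lie side by side between mt-Nd1 and mt-Nd2. The share of mt-Tm in tRNA counts was 0.739%, 1.31% and 1.17% after the antibody and 1.01%, 1.42% and 0.760% with IgG. It was lowest in anti-CTHRC1 replicate 5 and IgG replicate 20, and the same held for mt-Ti and mt-Tq. The share of mt-Nd2 in protein-coding counts, 5.68%, 5.81% and 5.96% after the antibody and 5.66%, 6.40% and 4.72% with IgG, was likewise lowest in IgG replicate 20.

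A set of nuclear genes that copy mitochondrial DNA carried a second portion of these counts. Such insertions, known as nuclear mitochondrial segments, arise when mitochondrial DNA enters a chromosome. Counts on 9 annotated copies made up 2.93% to 5.13% of each library, and their share was lowest in IgG replicate 14 and highest in IgG replicate 20, as for the mitochondrial genes. The group difference was -0.015 percentage points (two-sided exact permutation test, p = 1). On chromosome 1 (GRCm38, between 24611535 and 24616197) 7 copies lie end to end on the minus strand. On chromosome 2 (between 22587291 and 22589647) lie the other 2.

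Where the copy was identical or nearly so over almost the whole gene, its count was nearly equal to that of the mitochondrial gene. Gm28661 matched mt-Co2 at 100% over 681 bases and had 97.7% to 99.3% of its counts. Gm28437 matched mt-Co3 at 100% over 783 bases and had 99.0% to 99.6% of its counts. The copy Gm10925 of mt-Atp6 had 104% to 106%, and the copy Gm10222 of mt-Nd4l had 94.6% to 100.3%. Gm28438 differs from mt-Nd3 at 1 of 345 bases and had 96.6% to 98.9% of its counts. The pair is printed, read 5′ to 3′, to show how little separates a mitochondrial from a nuclear read. Capitals mark the differing base, T3C counted from 1 at the start of mt-Nd3 with the mitochondrial base given before the nuclear base. Bases 1 to 150 of each are shown, MT:9459-9608 (plus strand) above and chr1:24612970-24613119 (minus strand) below, both from GENCODE transcripts in GRCm38.
mt-Nd3: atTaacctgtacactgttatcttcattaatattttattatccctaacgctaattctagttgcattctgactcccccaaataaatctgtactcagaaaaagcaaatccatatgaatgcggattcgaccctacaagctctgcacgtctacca
Gm28438: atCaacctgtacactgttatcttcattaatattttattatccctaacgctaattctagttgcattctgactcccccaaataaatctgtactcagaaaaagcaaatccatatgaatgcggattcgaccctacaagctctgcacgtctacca
The copy of mt-Nd4, Gm28439, is identical over the 876 bases that it holds of the 1378 of the gene and had 31.0% to 33.2% of the counts. Gm29216, which matches the last 483 bases of mt-Co1 at 99.8%, had 5.88% to 6.997%. The chromosome 2 copies, which differ more, had far fewer. Gm13341 matched mt-Co2 at 95.9% with 16 mismatches and had 0.141% to 0.167% of its counts, and Gm13340 matched mt-Co1 at 97.6% with 37 mismatches and had 0.0385% to 0.0568%. The copies of mt-Co2, mt-Co3, mt-Atp6, mt-Nd4l and mt-Nd3 on chromosome 1 span nearly the whole gene and had near-equal counts. Identity alone did not go with equal counts, since per length Gm28439 had 48.8% to 52.2% and Gm29216 18.5% to 21.97% of the counts of its mitochondrial gene. How reads with several matches were counted is not given in the sources used here. For mt-Co2, mt-Co3, mt-Atp6, mt-Nd4l and mt-Nd3, reads of the mitochondrial gene and of its copy cannot be told apart, and their levels are uncertain to that extent. The same holds within the 876 bases of mt-Nd4 that are shared with Gm28439. For mt-Co1 it holds in most of the last 483 bases, where Gm29216 differs at 1 base.

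**Figure D3:**
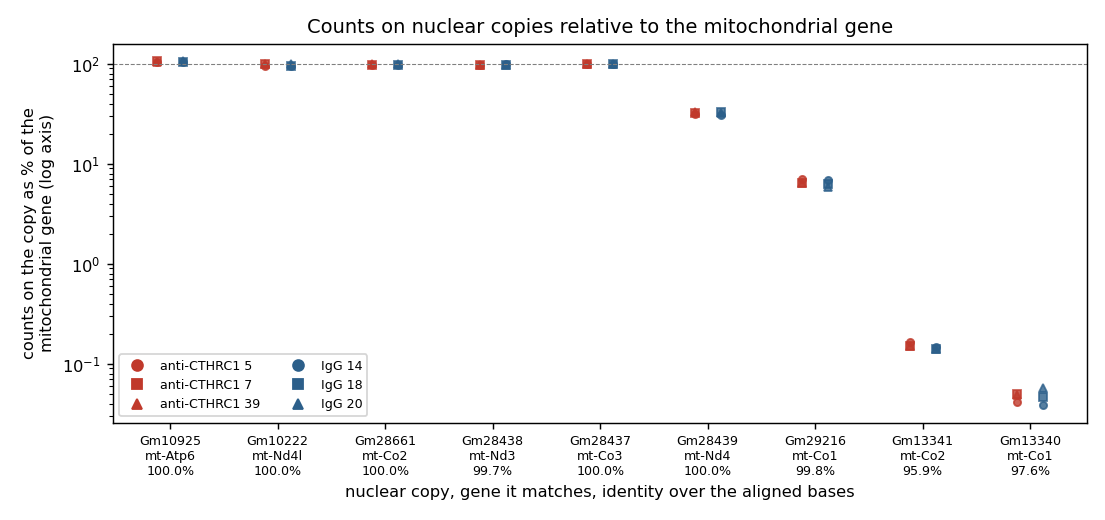
Counts on each of the 9 nuclear copies as a percentage of the counts on the mitochondrial gene that it matches (log axis), in each of the 6 libraries, with the identity of the aligned bases under each name. Full-length copies with 99.7% or 100% identity lie at 94.6% to 106%, and the diverged chromosome 2 copies lie under 0.167%.

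The nuclear subunit genes of the respiratory chain followed another order of libraries. Measured as each gene's log2 CPM minus its own mean over the 6 libraries, the 13 mitochondrial mRNAs had medians of -0.73, 0.22 and 0.40 in IgG replicates 14, 18 and 20. In the same libraries 50 nuclear respiratory chain genes stood at -0.30, -0.36 and -0.12. In the antibody group, replicates 5, 7 and 39 gave -0.21, 0.22 and 0.04 for the mitochondrial mRNAs and -0.27, 0.70 and 0.35 for the nuclear genes. IgG replicates 18 and 20 were thus above the mean for mitochondrial mRNAs and below it for nuclear subunit genes, while anti-CTHRC1 replicate 7 was above it for both. Brown adipocyte markers (6 of 6, with counts in every library), from a cell type rich in mitochondria and including the subunit genes Cox7a1 and Cox8b, summed to 299, 1317 and 896 CPM after the antibody and 534, 513 and 382 CPM with IgG, in CPM without TMM scaling. White adipocyte markers (6 of 6, also with counts in every library) summed on the same scale to 2511, 4182 and 3462 CPM after the antibody and 1216, 705 and 2048 CPM with IgG, without overlap between the groups. Both lists were highest in anti-CTHRC1 replicates 7 and 39, the libraries in which the nuclear subunit genes were highest, and their part in that order was not tested.

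**Figure D4:**
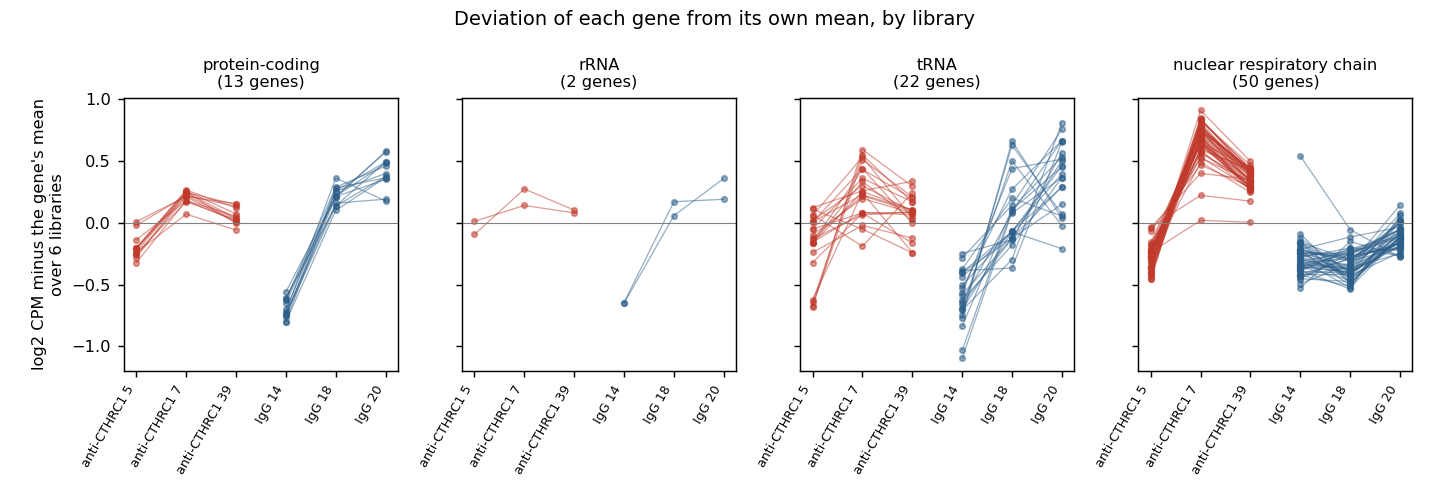
Deviation of each gene from its own mean (log2 CPM) in the 6 libraries for the mitochondrial mRNAs, rRNAs and tRNAs and for 50 nuclear respiratory chain genes, with lines joining the values of 1 gene within a group. The mitochondrial mRNAs have medians from -0.73 (IgG replicate 14) to 0.40 (IgG replicate 20), and the nuclear genes have their highest median, 0.70, in anti-CTHRC1 replicate 7.

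Nuclear genes that make, process and translate mitochondrial RNA were described next, in 5 lists. In edgeR 0 genes of any list passed the threshold. Most fold changes in each list were positive, whereas over all genes tested 9175 of 19241 were positive and the median was -0.02. Of 18 genes for transcription and replication of mitochondrial DNA, 18 had positive fold changes, with a median of 0.28 on the log2 scale. Their edgeR test gave 3 unadjusted p-values under 0.05, near the share over all genes tested, 17.1%. Groups did not overlap in scaled CPM for 6 of the 18, against 22% of all genes tested. Mgme1, a nuclease of mitochondrial DNA replication, had 8.60, 12.4 and 10.3 CPM after the antibody and 7.87, 5.82 and 5.45 CPM with IgG, without overlap (0.71 ± 0.22, edgeR adjusted p = 0.201). Mterf4, which helps to assemble the large ribosomal subunit, and the transcription elongation factor gene Tefm both had log2 fold changes of 0.53, with edgeR adjusted p-values of 0.227 and 0.236. Mterf2 had the largest fold change, 0.97 ± 0.47, with overlap between the groups. The genes of the transcription activator TFAM and the RNA polymerase POLRMT, Tfam and Polrmt, had log2 fold changes of 0.14 ± 0.11 and 0.34 ± 0.17, and were added to the named genes for their roles.

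Of 34 genes for processing and stability of mitochondrial RNA, 32 had positive fold changes (median 0.29). Here 6 unadjusted edgeR p-values were under 0.05, again near the 17.1% of all genes tested. Groups did not overlap in scaled CPM for 10 of the 34, against 22% of all genes tested. The FASTK family members Fastk and Fastkd1, which bind mitochondrial RNA, had log2 fold changes of 0.40 ± 0.14 and 0.68 ± 0.26. The tRNA-modifying enzyme genes Mto1 and Trmu had 0.55 ± 0.20 and 0.47 ± 0.18. The edgeR adjusted p-values of these 4 genes were between 0.246 and 0.258. Of 78 mitochondrial ribosomal protein genes, 75 had positive fold changes (median 0.32, 18 unadjusted p-values under 0.05, against 17.1% of all genes tested). For 16 of the 78 the groups did not overlap, near the 22% of all genes tested. Mrpl38, of the large subunit, had 29.1, 46.4 and 42.3 CPM after the antibody and 25.2, 22.8 and 26.9 CPM with IgG. Its groups did not overlap, and it was the only gene of the 5 lists that DESeq2 called with all libraries (log2 fold change 0.66 ± 0.18 in edgeR, edgeR adjusted p = 0.184, DESeq2 adjusted p = 0.0387). DESeq2 called 7.48% of all genes that it tested. Mrpl10, Mrps25 and Mrps14 followed, with log2 fold changes of 0.42, 0.40 and 0.39.

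Regulators of mitochondrial content were mixed, with 10 of 16 fold changes positive (median 0.14). The deacetylase gene Sirt3 and the nuclear receptor gene Esrra had 0.51 ± 0.19 and 0.46 ± 0.19, and the transcription factor genes Nfe2l2 and Gabpb1 had -0.26 ± 0.12 and -0.34 ± 0.18. None was called. Of the 50 nuclear subunit genes of the respiratory chain, 49 had positive fold changes, with a median of 0.56. In edgeR 17 of them had an unadjusted p under 0.05, against 17.1% of all genes tested. Only 3 of the 50 had groups that did not overlap in scaled CPM, below the 22% of all genes tested. The complex I subunit genes Ndufa2, Ndufs1, Ndufb3 and Ndufa9 had 0.49, 0.67, 0.69 and 0.66, with edgeR adjusted p-values of 0.217 to 0.229. Levels of Ndufs1 were 67.3, 127 and 101 CPM after the antibody and 60.1, 58.1 and 67.5 CPM with IgG, so that anti-CTHRC1 replicate 5 lay within the control range and replicates 7 and 39 lay above it. Without anti-CTHRC1 replicate 5 DESeq2 called 47 of the 50 genes and 27 of the 78 mitochondrial ribosomal protein genes. It called 9.16% of all genes tested in that fit, and without replicate 7 it called 0 of either list. The edgeR fit without replicate 5 called 0 genes of either list and 2 of all genes tested. The median of the 50 genes was 0.78 without replicate 5 and 0.33 without replicate 7. The medians of the other lists also fell without replicate 7, to 0.20 for transcription and replication, 0.17 for RNA processing, 0.19 for ribosomal proteins and 0.01 for the regulators. Without replicates 5 and 7 in turn the median of the 13 mitochondrial mRNAs was 0.09 and -0.13.

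**Figure D5:**
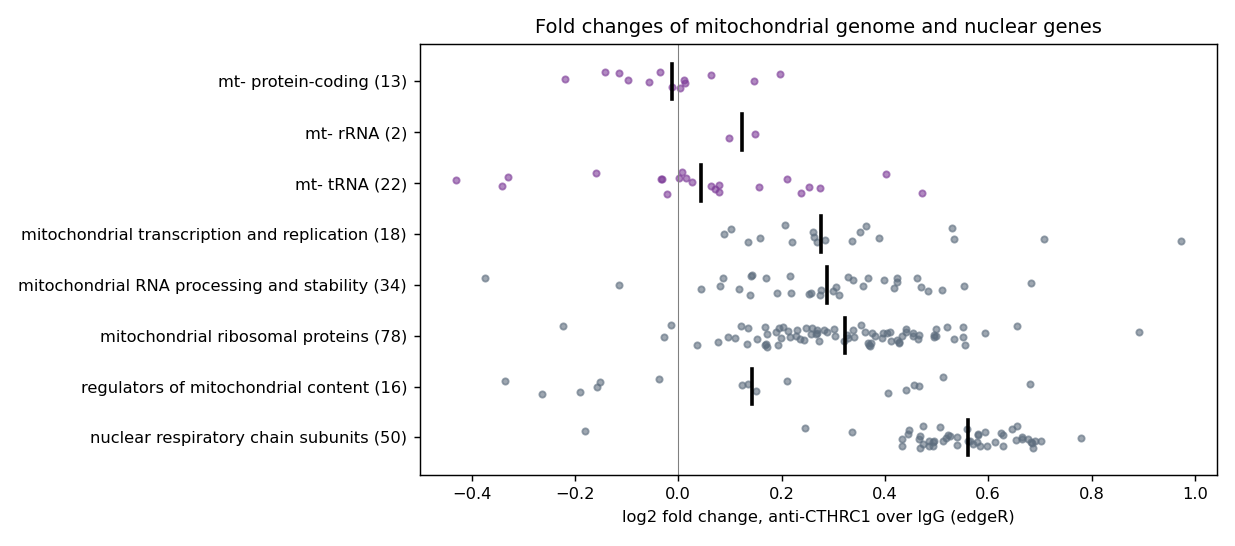
Log2 fold change, antibody over IgG, of each mitochondrial gene by class and of each gene in the 5 nuclear lists (edgeR), with a bar at the median of each row and the number of genes in brackets. The mitochondrial classes have medians of -0.01, 0.12 and 0.04, and the nuclear subunit genes have a median of 0.56.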

How the data were processed

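RNA of 6 mouse aorta libraries was prepared with a kit for stranded total RNA and read as 150-bp pairs, per the labels' protocols. For each library and each of 32771 genes the authors deposited an unscaled count and an FPKM, which is scaled by length and library size, per the file headers. GRCm38, HISAT2, StringTie and DESeq2 appear in the submitters' processing notes. Versions, annotation release, strand setting and the treatment of reads with several matches are not given in the sources used here.

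The main test of the counts used edgeR 4.0.16 under R 4.3.3 (filterByExpr, TMM scaling, robust quasi-likelihood F-test, two-sided, Benjamini-Hochberg adjustment over the 19241 genes tested, threshold 0.05). All 6 libraries entered without covariates. CPM values of single genes are scaled by TMM, and summed CPM values of cell type markers are not. Shares and ratios were compared with exact permutation tests over libraries. Deposited FPKM values served to order genes and, as log2(FPKM + 1) or log2(FPKM + 0.1) for genes with a mean FPKM of 1 or more, for limma 3.58.1. Other alternatives were DESeq2 1.42.0, its size factors, limma-voom, no filter, other library totals and leaving out libraries. Simulated counts with known changes were used to check the edgeR step. Symbols, strands and sequences of all 37 genes and 9 nuclear copies were matched to GENCODE M21, and copies were aligned with BLAST 2.17.0. Anticodons were located as the unique match to T, the anticodon and a purine in the middle of the gene.

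The members and lists were chosen with earlier results of these data known. All mRNA and rRNA genes were named with every value, the 3 tRNA genes with the highest mean CPM and the 3 with the smallest p likewise, and up to 4 genes with the smallest p per list.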

Additional observations from a re-analysis of the deposited data

How the results depend on the processing

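Of 740 member values under 20 alternatives each, 738 stayed on the same side of the threshold, and the other 2 (mt-Te and mt-Tl1) passed it in DESeq2 without IgG replicate 14. DESeq2 leaving out each library, the within-class alternatives and the removal of 2 libraries for the lists were chosen after seeing the data. In DESeq2 leaving out each library, calls ranged from 0 to 2 of the 37 members. Without anti-CTHRC1 replicate 5 DESeq2 called 2 transcription and replication genes, 7 RNA processing genes, 27 ribosomal protein genes, 2 regulators and 47 nuclear subunit genes, against 9.16% of all genes tested. When IgG replicate 14 was dropped it called 2 of 18 transcription and 4 of 78 ribosomal protein genes. It then called 11.4% of all genes tested, so the first count is near that share and the second below it. When IgG replicate 20 was dropped it called 1 of 34 RNA processing and 2 of 78 ribosomal protein genes. It then called 2506 genes in all, against 1584 with all libraries. The share of genes tested is not given for that fit, so nothing is read from these list counts. With all libraries DESeq2 called 1 ribosomal protein gene, against 7.48% of all genes tested. Calls were 0 in the other removals. Leaving out each library in edgeR gave 0 calls in all of these lists. Leaving out each library moved the protein-coding share difference (antibody minus IgG) from -3.73 to 1.43 percentage points, reversing it to 0.56, 0.46 and 1.43 when antibody replicate 5, IgG replicate 18 or IgG replicate 20 was dropped. The rRNA difference ran from -0.0187 (reversed, without IgG replicate 14) to 0.0330, and was -0.0194 without anti-CTHRC1 39 and IgG 14 together. The tRNA difference ran from -0.0166 to 0.0044 (reversed, without IgG replicate 20). The difference for nuclear copies ran from -0.680 to 0.423, reversed at 0.212, 0.211 and 0.423 without the same libraries as the protein-coding share. The cause was not tested. Genes without overlap in their class share numbered 9 with all libraries and 10 to 19 leaving out each library. Without anti-CTHRC1 39 and IgG 14 together there were 19. With fewer libraries groups separate more often. No share over all genes is given for these smaller sets, so nothing is read from the rise. The sign of the median mRNA fold change, -0.01, was positive in limma-voom and without a filter (0.02 each). Adding nuclear copies gave no rRNA value, since no copy matched an rRNA gene. No paired analysis was possible because the groups share no replicate numbers. Depth limits mt-Tf and mt-Tv, with 11 to 25 counts.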
